A study of Mus musculus with 21 samples.

Results

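The alanine tRNAs with the anticodon AGC were followed through the cerebrum and cerebellum of mice with a mutation in Polr3a, the gene for the largest and catalytic subunit of RNA polymerase III. The members were the nuclear rows of the tRNA count tables whose names begin with Ala-AGC, and their sum, the Ala-AGC total. They made up 9 of the 209 tRNA rows of the cerebrum table and the same 9 names of the 208 rows of the cerebellum table. All 9 passed the filter on low counts in both tissues. The libraries were made with QuantM-tRNA-seq, a method for sequencing tRNAs from total RNA. C57BL/6J mice fed ad libitum were given tamoxifen on day 28 after birth, and their tissue was frozen on day 42. The wildtype mice received tamoxifen too, so both genotypes share that treatment. The mutant groups held 4 cerebrum and 5 cerebellum libraries and the wildtype groups 6 of each tissue. The labels name neither the mutant allele nor the Cre line, and whether each library is a different animal is not stated. Cerebrum and cerebellum libraries of 1 genotype with the same number have the same sex, so both tissues may come from the same animals, which the labels do not state. The p-values therefore describe the spread between libraries, part of which may be technical.

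A tRNA with the anticodon AGC carries alanine. Its first anticodon base, an adenosine, is converted to inosine by the ADAT2/ADAT3 deaminase, which lets the tRNA read codons that end in U, C or A. Alanyl-tRNA synthetase recognises alanine tRNAs mainly by a G:U pair in the acceptor stem, not by the anticodon. RNA polymerase III transcribes nuclear tRNA genes from promoter elements inside the gene, the A box and B box, which recruit TFIIIC and then TFIIIB. Isodecoders are tRNAs that share an anticodon and differ elsewhere in sequence. In the names of these rows the number after the anticodon numbers the isodecoder, and a further number, where present, a gene copy. 6 of the 9 names carry such a gene number (Ala-AGC-1-1, Ala-AGC-3-1, Ala-AGC-6-1, Ala-AGC-7-1, Ala-AGC-8-1 and Ala-AGC-10-1) and 3 do not (Ala-AGC-2, Ala-AGC-4 and Ala-AGC-5).

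RefSeq (GRCm38.p6, the assembly called mm10) lists 13 nuclear genes for this tRNA, named n-TAagc, of 72 to 73 bases. 9 of them lie on chromosome 13. The first of these in genome order is n-TAagc16 (chromosome 13, 21222586 to 21222657) and the last n-TAagc13 (chromosome 13, 23431412 to 23431484). The remaining 4 are n-TAagc14 on chromosome 3, n-TAagc8 on chromosome 4, n-TAagc15 on chromosome 5 and n-TAagc9 on chromosome 19. The RefSeq names are not paired with the isodecoder names, so no isodecoder was given a position here and no sequence is shown. Because the genes differ by 1 base in length at most, levels of the isodecoders were compared without a length correction.

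The cerebrum libraries held 4365247 to 7614658 counts and the cerebellum libraries 1628057 to 7158467. In cerebellum, depth went with genotype: 1 mutant and 5 wildtype libraries lay under 3500000 counts, and 4 mutant and 1 wildtype library above. Mitochondrial tRNAs took a larger share of counts in the mutants, 12.8% to 15.7% against 10.4% to 11.7% in cerebrum and 13.96% to 21.2% against 12.5% to 14.4% in cerebellum. The tables also hold a bacterial glutamine tRNA spike-in, and the amount added to each library is not stated. A tRNA library does not measure the Polr3a messenger RNA, so the genotype could not be checked in these counts.

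One isodecoder, Ala-AGC-4, made up most of the family. It held 63.0% of all Ala-AGC counts in cerebrum and 62.2% in cerebellum. Ala-AGC-6-1 came next with 12.0% and 12.9%, then Ala-AGC-2 with 8.49% and 7.92%, and Ala-AGC-3-1 with 7.76% and 6.57%. Ala-AGC-5 (4.31% and 5.84%) and Ala-AGC-7-1 (4.01% and 4.14%) lay close together. The last 3 were scarce. Ala-AGC-1-1 held 0.373% in cerebrum and 0.429% in cerebellum, Ala-AGC-8-1 0.0320% and 0.0286%, and Ala-AGC-10-1 0.0116% and 0.0256%. The mean count per library of Ala-AGC-10-1 was 15.6 in cerebrum and 46.9 in cerebellum, and that of Ala-AGC-8-1 was 43.1 and 52.5, so changes of these 2 could be measured only coarsely. In wildtype cerebrum the neighbours Ala-AGC-2 (2258.55 to 2440.15 CPM, counts scaled to a common library size after TMM normalization) and Ala-AGC-3-1 (1752 to 2285 CPM) overlapped, as did Ala-AGC-5 and Ala-AGC-7-1. The family as a whole supplied 65.5% ± 0.805 (SD, n = 6) of the nuclear alanine tRNA counts of wildtype cerebrum and 67.0% ± 1.73 (n = 6) of those of wildtype cerebellum.

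**Figure D1:**
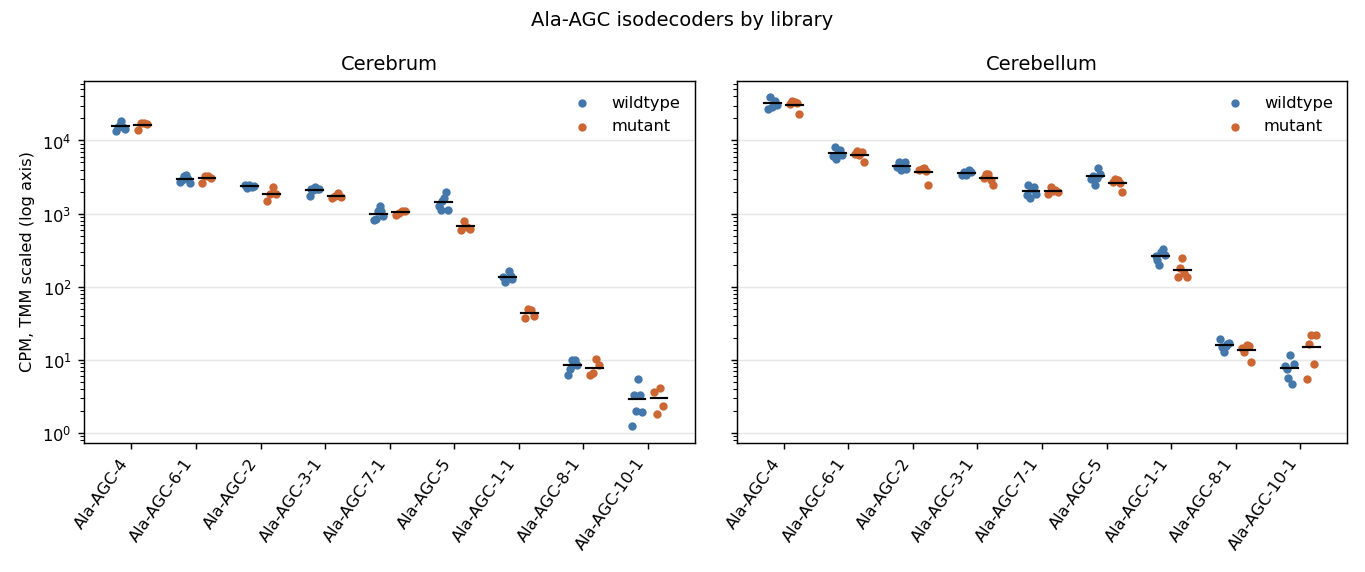
Level of each Ala-AGC isodecoder in every library, as CPM after TMM scaling within a tissue, on a log axis; each point is a library and each black bar a group mean. Ala-AGC-1-1 and Ala-AGC-5 separate the genotypes in cerebrum, where Ala-AGC-1-1 means are 43.8 CPM in mutants and 134 CPM in wildtype.

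In cerebrum, 2 isodecoders of the family were lower in the mutants, and the abundant ones showed no change that passed the test. Ala-AGC-1-1, a scarce isodecoder, was 3.07-fold lower, and Ala-AGC-5, of intermediate level, 2.16-fold lower. So 2 of 9 members fell and 0 rose with edgeR's quasi-likelihood test at an adjusted p under 0.05. Over all 208 tRNA rows tested 11.5% fell, 8.17% rose and 19.7% passed in either direction. Of the 186 nuclear rows among them 24 fell and 2 rose, so most of the rows that rose were mitochondrial. At an unadjusted p under 0.05, 4 of 9 lay lower and 0 higher. At that p 38 of the 208 rows lay lower and 29 higher (38 and 12 among nuclear rows). DESeq2 called 2 of 9 lower and 0 higher. It called 24 of the 208 rows lower and 28 higher (24 and 12 among nuclear rows). The median log2 change of the 9 members was -0.11, beside -0.03 over all rows tested and -0.07 over the nuclear rows.

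The level of Ala-AGC-1-1 in the 4 cerebrum mutants was 37.8, 49.7, 47.6 and 40.1 CPM. In the 6 wildtype libraries it ran from 115 to 162 CPM with a median of 131. All 4 mutants lay below all 6 wildtype libraries, and the raw counts behind these values were 205 to 328 in mutants and 551 to 768 in wildtype. The difference was -1.62 on the log2 scale (SE 0.16, edgeR adjusted p = 3.37e-07). This was the smallest p among the 208 rows and the 2nd lowest log2 change. Ala-AGC-5 stood at 602, 794, 654 and 609 CPM in the mutants. Its wildtype libraries ran from 1110 to 1994 CPM with a median of 1386. The groups did not overlap, and the difference was -1.11 (SE 0.17, edgeR adjusted p = 0.000114), the 3rd smallest p of the 208 rows. These 2 were the only members without overlap. Of all rows, 9.62% had every mutant library below every wildtype library and 5.77% every one above.

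Ala-AGC-2 and Ala-AGC-3-1 lay lower by less and did not pass. Ala-AGC-2 had 1504, 1856, 2278 and 1831 CPM in the mutants and 2258.55 to 2440.15 CPM in wildtype, with a median of 2383. In 3 of 4 mutants it lay below all wildtype libraries, with mutant 3 inside their range. The difference was -0.34 (SE 0.12, edgeR adjusted p = 0.0540), and without mutant 3 it was -0.45 with an adjusted p of 0.0185. Leaving out each of the 10 libraries in turn gave -0.45 to -0.20, with edgeR adjusted p up to 0.215. In 9 of these 10 fits it did not pass. Ala-AGC-3-1 differed by -0.26 (SE 0.12, edgeR adjusted p = 0.122), with 2 of 4 mutants below all wildtype libraries. The main isodecoder, Ala-AGC-4, had 13820, 17306, 17155 and 16825 CPM in the mutants and 13558 to 18644 CPM in wildtype, with a median of 15280. These groups overlapped, and the difference was 0.06 (SE 0.12, edgeR adjusted p = 0.789). Ala-AGC-6-1 had 2634 to 3282 CPM in the mutants and 2650 to 3412 CPM in wildtype, a difference of 0.04 (SE 0.12, edgeR adjusted p = 0.845). The other 3, Ala-AGC-7-1, Ala-AGC-8-1 and Ala-AGC-10-1, differed by 0.05, -0.11 and 0.03, and their groups overlapped. On the mitochondrial and spike-in scales described below, the values of Ala-AGC-4, Ala-AGC-6-1, Ala-AGC-7-1 and Ala-AGC-10-1 in cerebrum turned negative, and with mitochondrial scaling Ala-AGC-4 (-0.33, edgeR adjusted p = 0.0356) and Ala-AGC-6-1 (-0.35, edgeR adjusted p = 0.0341) passed as lower.

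The makeup of the family does not depend on how libraries are scaled. As a share of all Ala-AGC counts, Ala-AGC-1-1 was 0.178%, 0.191%, 0.180% and 0.159% in the cerebrum mutants and 0.461% to 0.591% in wildtype, with a median of 0.537%. Ala-AGC-5 was 2.84%, 3.04%, 2.47% and 2.42% in the mutants and 4.46% to 7.75% in wildtype, with a median of 5.51%. Both shares separated the genotypes without overlap. Isodecoder usage was tested with edgeR's diffSpliceDGE, which sets the change of a row against that of its whole anticodon, the row included. It called 2 of 9 members lower: Ala-AGC-1-1 by -1.56 (adjusted p = 1.61e-12) and Ala-AGC-5 by -1.06 (adjusted p = 1.40e-09). Of the 178 isodecoders tested for usage, 14% were lower, 2.25% higher and 16.3% passed in either direction. That test shares 1 estimate of spread among the isodecoders of an anticodon, so the shares were also compared by exact two-sided permutation over libraries, where the smallest p that 210 splits allow is 0.00952. Mean shares were 0.177% against 0.525% for Ala-AGC-1-1 and 2.69% against 5.58% for Ala-AGC-5, each with that smallest exact p, unadjusted among 18 shares tested.

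Shares sum to 100, and the shares of the abundant members moved the other way. Ala-AGC-4 held 65.2%, 66.4%, 64.9% and 66.8% of the family in the cerebrum mutants and 58.6% to 62.6% in wildtype, with a median of 60.7%. Ala-AGC-6-1 held 12.3% to 12.6% in the mutants and 11.1% to 12.2% in wildtype. Neither overlapped between genotypes and both had the smallest possible exact p of 0.00952, although neither passed the usage test (adjusted p = 0.793 and 0.827). In that test a row's own counts enter the anticodon change that it is set against. For Ala-AGC-4, which held most of the counts, this shrinks the usage value. So 2 of 9 shares lay lower and 2 of 9 higher without overlap, beside 19.7% lower and 12.4% higher over all isodecoders tested for usage. The shares of Ala-AGC-2 (7.53% against 9.31%) and Ala-AGC-3-1 (7.11% against 8.23%) were lower in mutants with an exact permutation p of 0.0190 each, and overlapped.

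**Figure D2:**
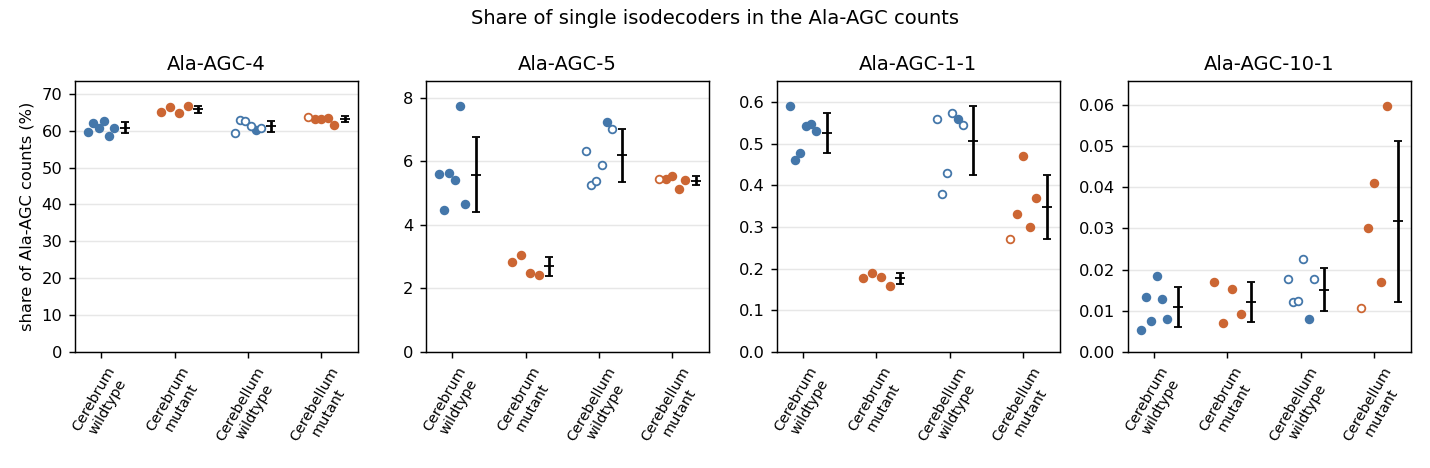
Share of all Ala-AGC counts held by 4 isodecoders, in percent on axes that start at 0; points are libraries, open where the library has under 3500000 counts, and black marks give the group mean ± SD. The cerebrum mutants lie below all wildtype libraries for Ala-AGC-5 and Ala-AGC-1-1 and above them for Ala-AGC-4, while Ala-AGC-10-1 spreads from 0.0107% to 0.0598% in the cerebellum mutants.

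Summed over its isodecoders, the Ala-AGC total gave no genotype difference that passed the test when libraries were scaled to their own tRNA pool. In cerebrum it was 19546, 25496, 25648 and 25210 CPM in the mutants and 22368 to 31282 CPM in wildtype, with a median of 25760. The groups overlapped, and the difference was -0.13 (SE 0.12, edgeR adjusted p = 0.619). In cerebellum the mutants had 33960 to 55168 CPM, with a median of 50928, and the wildtype 45008 to 62229 CPM, with a median of 53370. This difference was -0.15 (SE 0.13, edgeR adjusted p = 0.537). Among all anticodon sums, 11.1% passed in cerebrum and 0% in cerebellum.

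Set against 2 other references, the mean Ala-AGC total lay lower in the mutants in both tissues, and 2 of these 4 differences passed the test. Per mitochondrial count its mean log2 ratio was -2.56 in cerebrum mutants and -2.12 in wildtype, a difference of -0.44 with an SE of 0.12 (exact permutation p = 0.00952, and 0.0190 adjusted over 4 ratios). In cerebellum the same difference was -0.47 with an SE of 0.22 (exact permutation p = 0.0563, adjusted 0.0571). Per spike-in count it was -0.40 with an SE of 0.21 in the cerebrum (exact permutation p = 0.0571, adjusted 0.0571). The cerebellum value per spike-in count was -0.64 with an SE of 0.14 (exact permutation p = 0.00866, adjusted 0.0190). So each tissue had 1 ratio past the threshold and 1 not. The family was not particular in this: the median log2 change of all rows was -0.41 with mitochondrial scaling and -0.36 with spike-in scaling in cerebrum, and -0.37 and -0.59 in cerebellum, beside -0.03 with TMM in both. With mitochondrial scaling 6 of 9 members passed as lower in cerebrum, where 53.4% of all rows did, and 4 of 9 in cerebellum, where 26.2% did. With spike-in scaling 4 of 9 passed in cerebrum (35.6% of all rows) and 6 of 9 in cerebellum (41.1%). Which reference held steady between genotypes was not tested, and fewer cells and less tRNA per cell cannot be told apart in bulk tissue.

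**Figure D3:**
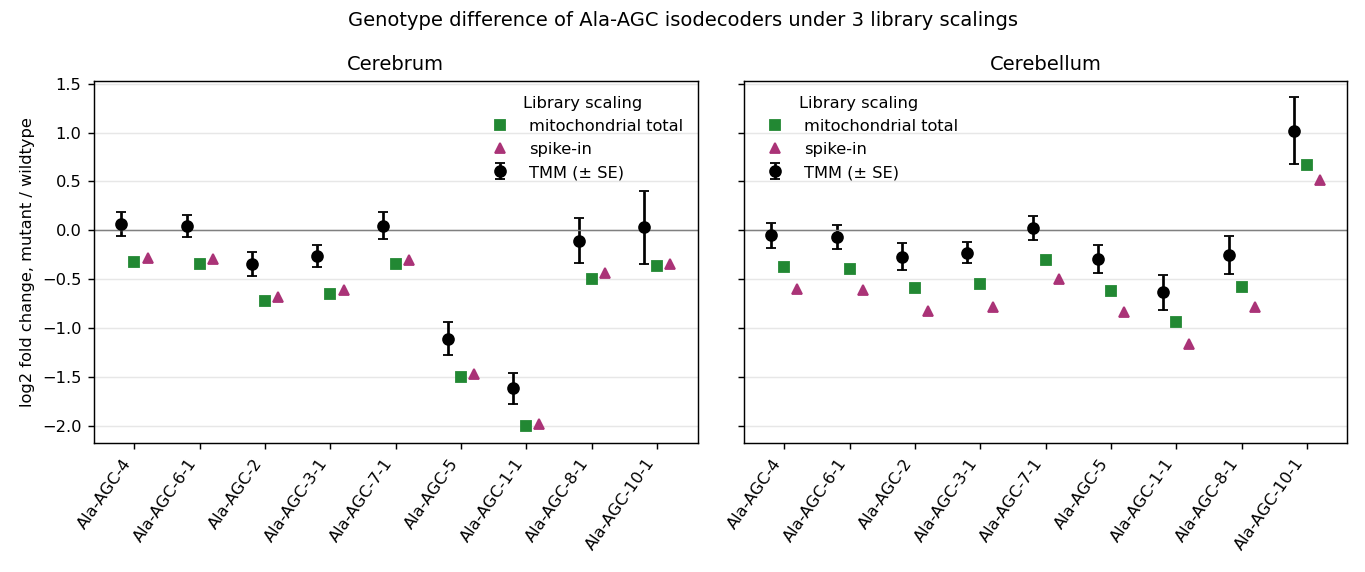
Log2 fold change of mutant over wildtype for each isodecoder, with TMM scaling as black points ± SE and with mitochondrial and spike-in scaling as green squares and purple triangles. Both other scalings shift all 9 values down by a similar amount, so that Ala-AGC-1-1 and Ala-AGC-5 stay the lowest in cerebrum and Ala-AGC-10-1 the highest in cerebellum.

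In cerebellum no member passed the test, and Ala-AGC-1-1 again had the smallest p of the family. 0 of 9 members passed with edgeR, where 2.48% of the 202 rows tested did, 0.495% as higher and 1.98% as lower. For none of the 9 were all mutant libraries on 1 side of the wildtype range, where 1.98% of rows lay fully lower and 0.99% fully higher. At an unadjusted p under 0.05 there were 2, Ala-AGC-1-1 lower and Ala-AGC-10-1 higher, and DESeq2 called both, with adjusted p of 0.0121 and 0.0417. Over the 202 rows 18 lay lower and 22 higher at that unadjusted p, and DESeq2 called 10 lower and 13 higher. Among the 180 nuclear rows 18 lay lower and 7 higher, and DESeq2 called 10 lower and 6 higher. The median log2 change of the members was -0.23, beside -0.03 over all rows tested and -0.06 over the nuclear rows.

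Ala-AGC-1-1 had 136, 181, 247, 154 and 136 CPM in the cerebellum mutants and 199 to 326 CPM in wildtype, with a median of 265. 4 of 5 mutants lay below all wildtype libraries, and mutant 3 lay among them. The difference was -0.63 (SE 0.18, edgeR adjusted p = 0.0519), a 1.55-fold lower level. Leaving out mutant 3 gave -0.80 with an adjusted p of 0.00449, and leaving out mutant 5 gave -0.54 with 0.0450, so whether it passed rested on single libraries. In the other 9 of 11 such fits it did not pass, with edgeR adjusted p up to 0.151. The 4 mutant libraries of over 3500000 counts had 136 to 247 CPM beside 326 CPM in the 1 wildtype library of that depth, and the 1 shallow mutant had 136 CPM beside 199 to 298 CPM in the 5 shallow wildtype libraries. Its share of the family, 0.348% in mutants and 0.508% in wildtype, differed with an exact permutation p of 0.0173, unadjusted among 18, but the usage test missed the threshold (-0.54, adjusted p = 0.0757). Leaving out mutant 3, mutant 5 or wildtype 2 brought that usage value past it, with adjusted p of 0.0110, 0.0131 and 0.0392. Leaving out mutant 1, 2 or 4 moved it away, with usage adjusted p of 0.318, 0.223 and 0.307. With depth class as a covariate the usage adjusted p was 0.125.

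Ala-AGC-10-1 had the highest value of the family in cerebellum. Its counts were 11, 81, 117, 46 and 148 in the cerebellum mutants and 12 to 26 in wildtype, or 5.36, 16.5, 21.5, 8.71 and 22.0 CPM against 4.70 to 11.7 CPM with a median of 7.80. 3 of 5 mutants exceeded all wildtype libraries, and the other two lay within their range. The difference of 1.02 (SE 0.34, edgeR adjusted p = 0.1002) was the highest log2 change of the 202 rows, but did not pass. The usage test called it higher by 1.11 (adjusted p = 0.00182), 1 of 9 members, where 1.73% of 173 isodecoders were called higher and 3.47% in either direction. The exact permutation of its share, 0.0317% against 0.0150%, gave p = 0.0866. All 3 high libraries are among the deep ones: the shallow mutant had 5.36 CPM, the deep mutants 8.71 to 22.0 CPM and the deep wildtype library 4.70 CPM. With depth class as a covariate the usage value was 0.94 with an adjusted p of 0.320. In cerebrum its counts were 12 to 23 in mutants and 5 to 26 in wildtype.

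The other members differed by -0.29 to 0.02 in cerebellum with TMM scaling, and none passed. With mitochondrial scaling 4 of the 9 members passed there as lower, and with spike-in scaling 6. Ala-AGC-4 had 32048, 34561, 33135, 32544 and 22734 CPM in the mutants and 27380 to 38754 CPM in wildtype, with a median of 31093, and differed by -0.05 (SE 0.13, edgeR adjusted p = 0.899). Mutant 5 was the low library, and without it the value was 0.07. Ala-AGC-6-1 differed by -0.07 (0.03 without mutant 5) and Ala-AGC-7-1 by 0.02, while Ala-AGC-8-1 differed by -0.25. Ala-AGC-2, Ala-AGC-3-1 and Ala-AGC-5 differed by -0.27, -0.23 and -0.29, none with an edgeR adjusted p below 0.248. Ala-AGC-5 had 2743, 2968, 2898, 2629 and 1993 CPM in the mutants and 2493 to 4228 CPM in wildtype, with a median of 3145, and only mutant 5 lay below that range. As a share of the family Ala-AGC-2 was lower in all 5 mutants (6.63% to 8.04%) than in any wildtype library (8.08% to 9.37%), with an exact permutation p of 0.00433, the smallest that 462 splits allow. It was the 1 share of 9 that did not overlap, where 2.89% of isodecoder shares lay lower and 3.47% higher without overlap, and its usage value of -0.18 did not pass (adjusted p = 0.9998).

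The genotype difference was smaller in cerebellum than in cerebrum for the 2 members that fell in cerebrum. A joint fit over 21 libraries, which treats the tissues' libraries as independent, put the cerebellum minus cerebrum difference of the log2 changes at 0.97 for Ala-AGC-1-1 (SE 0.25, edgeR adjusted p = 0.0148) and at 0.81 for Ala-AGC-5 (SE 0.24, edgeR adjusted p = 0.0437). These were 2 of 9 members, where 4.9% of the 204 rows in both tables passed, all of them higher. The call of Ala-AGC-5 rested on single libraries: leaving out 1 at a time, it passed in 6 of 21 fits, with adjusted p up to 0.107, while Ala-AGC-1-1 passed in all 21 (adjusted p = 0.00389 to 0.0475). DESeq2, which called 16 of the 204 rows higher and 1 lower, gave adjusted p of 0.00139 and 0.0103 for the 2 members. Both passed in usage too, at 1.03 and 0.86 with an adjusted p of 0.00324 each, where 3.45% of isodecoders passed. Depth moves with these values: with depth class as a covariate the joint values were 0.72 and 0.68, each with an adjusted p of 0.204, and the usage values were 0.83 and 0.79, with 0.169 and 0.0571. With mitochondrial scaling they were 1.07 and 0.88 (adjusted p = 0.0541 and 0.0777), and with spike-in scaling 0.82 and 0.63 (adjusted p = 0.551 and 0.699). Ala-AGC-10-1 had a joint value of 0.98 with an SE of 0.53 and did not pass (adjusted p = 0.375). The remaining 6 lay between -0.15 and 0.06, and the Ala-AGC total at 0.01 (SE 0.18, edgeR adjusted p = 0.985), where 1.39% of anticodon sums passed.

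Between the tissues of wildtype mice, tested as independent libraries, the whole family was higher in cerebellum with TMM and with mitochondrial scaling, but not with spike-in scaling. Library depth differed between these tissues as well, as described below. On the joint TMM scale the Ala-AGC total was 26344 to 33917 CPM in the 6 cerebrum libraries, with a median of 27982, and 41460 to 57260 CPM in the 6 cerebellum libraries, with a median of 49318. The tissues did not overlap, and the total was 1.70-fold higher in cerebellum (log2 0.77, SE 0.12, edgeR adjusted p = 8.42e-07), where 75% of anticodon sums passed in either direction. With TMM all 9 members were called higher in cerebellum, where 33.3% of all rows were higher, 37.7% lower and 71.1% passed in either direction. The log2 differences ran from 0.48 for Ala-AGC-3-1 (SE 0.12, edgeR adjusted p = 0.000522) to 1.08 for Ala-AGC-10-1 (SE 0.37, edgeR adjusted p = 0.0109), with a median of 0.72 beside -0.05 over all rows. For 5 of 9 members, Ala-AGC-2, Ala-AGC-3-1, Ala-AGC-4, Ala-AGC-6-1 and Ala-AGC-7-1, all cerebellum libraries exceeded all cerebrum libraries, where 24.5% of rows did so and 28.4% lay fully lower. Ala-AGC-4 went from 13275 to 20383 CPM in cerebrum (median 17165) to 24637 to 35008 CPM in cerebellum (median 27752), a log2 difference of 0.74 (SE 0.12, edgeR adjusted p = 5.31e-06).

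The share of the family among nuclear tRNA counts was 2.93% ± 0.401 (n = 6) in wildtype cerebrum and 6.12% ± 0.893 (n = 6) in wildtype cerebellum. The direction of the tissue difference rested on the scaling. With mitochondrial scaling all 9 members passed as higher, where 69 of the 204 rows were higher and 71 lower. With spike-in scaling 0 of 9 passed with edgeR in either direction, where 6 of the 204 rows were higher and 138 lower. With that scaling 8 of 9 members lay below 0, and 1, Ala-AGC-3-1, had an unadjusted p under 0.05, as lower. On that scale the median of all rows was -0.99, and the members ran from -0.43 to 0.18. The spike-in held 0.266% ± 0.0351 of counts in wildtype cerebrum and 0.634% ± 0.178 in wildtype cerebellum, and its part in this was not tested. Depth went with tissue too: all wildtype cerebrum libraries were deep, and 5 wildtype cerebellum libraries were shallow. Only 1 wildtype cerebellum library was deep, so a depth covariate cannot fully part tissue from depth here. With depth class as a covariate 8 of 9 members still passed and Ala-AGC-8-1 did not (edgeR adjusted p = 0.0743).

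**Figure D4:**
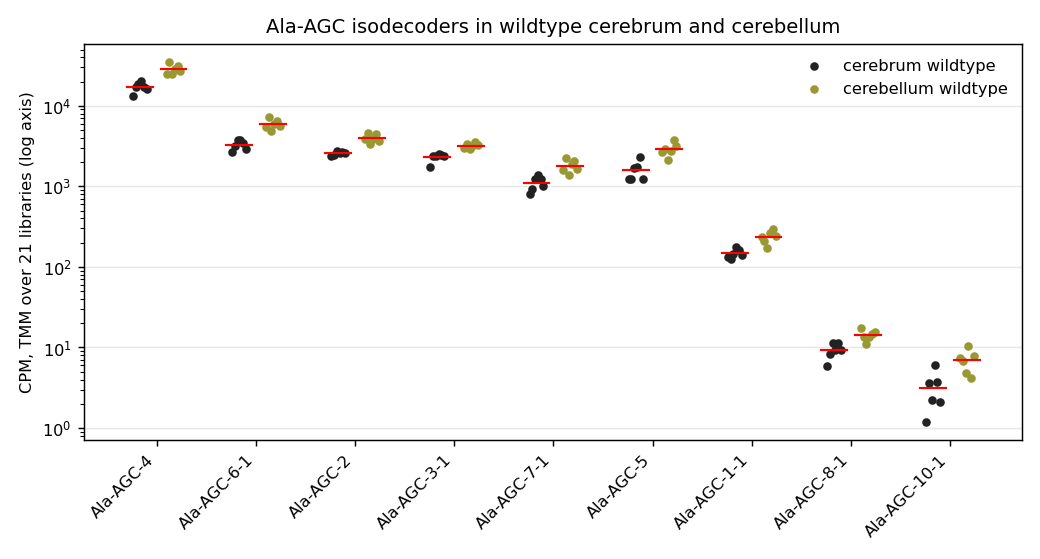
Level of each Ala-AGC isodecoder in the 6 wildtype cerebrum and 6 wildtype cerebellum libraries, as CPM with TMM scaling over 21 libraries, on a log axis; red bars are group means. With this scaling all 9 means are higher in cerebellum, and 5 isodecoders do not overlap between tissues.

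In cerebrum some members varied with Ala-AGC-1-1 and others with Ala-AGC-4. Over the 10 cerebrum libraries, which share the genotype difference and the scaling, Pearson's r of log2 CPM between Ala-AGC-1-1 and Ala-AGC-5 was 0.94, with Ala-AGC-2 0.83 and with Ala-AGC-3-1 0.79. With Ala-AGC-4, Ala-AGC-6-1 and Ala-AGC-7-1 it was -0.09, -0.03 and -0.05. Ala-AGC-4 and Ala-AGC-6-1, the 2 most abundant, had r = 0.94. Over the 11 cerebellum libraries Ala-AGC-1-1 had r = 0.86 with Ala-AGC-3-1 and 0.79 with Ala-AGC-5, against 0.36 with Ala-AGC-4, and Ala-AGC-4 again had r = 0.94 with Ala-AGC-6-1. There Ala-AGC-2 had r = 0.84 with Ala-AGC-4 and 0.69 with Ala-AGC-1-1, so that division was less clear. Outside the family, the isodecoders most like Ala-AGC-1-1 in cerebrum were Val-AAC-2 (r = 0.96, log2 change -0.91), Met-CAT-4-1 (r = 0.96, log2 change -1.75) and Leu-CAA-4-1 (r = 0.95, log2 change -1.13), over 10 libraries. In cerebellum they were Gly-CCC-3-1 (r = 0.86), Met-CAT-4-1 (r = 0.85) and Ala-CGC-3 (r = 0.83), over 11 libraries. The anticodon sums most like the Ala-AGC total were Ile-TAT (r = 0.91), Met-CAT (r = 0.88) and Ala-TGC (r = 0.87) in cerebrum, and Ala-TGC (r = 0.91), Ala-CGC (r = 0.87) and Trp-CCA (r = 0.85) in cerebellum. These correlations describe these libraries and were not tested.

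The other alanine tRNAs, with the anticodons CGC and TGC, carry the same amino acid to the ribosome. Of their 12 isodecoders tested in cerebrum, 0 passed with edgeR in either direction (19.7% of all rows). Of these 12, 3 had an unadjusted p under 0.05 (2 higher, 1 lower), and DESeq2 called 1 higher. The median log2 change of the 12 was -0.18. In cerebellum 0 of 11 passed with edgeR (2.48% of all rows) and 0 with DESeq2. Of the 11, 2 had an unadjusted p under 0.05, both lower, and the median of the 11 was -0.12. Between wildtype tissues 5 of 11 were higher in cerebellum (33.3% of all rows) and 1 lower (37.7%), with a median of 0.36. Their anticodon sums differed by nearly as much as the Ala-AGC total (0.77). The log2 difference was 0.72 for Ala-CGC (edgeR adjusted p = 1.63e-05) and 0.65 for Ala-TGC (edgeR adjusted p = 4.23e-05). Ala-AGC supplied 63.1% ± 1.40 (n = 4) of nuclear alanine counts in cerebrum mutants and 65.5% ± 0.805 (n = 6) in wildtype, and 65.5% ± 1.81 (n = 5) against 67.0% ± 1.73 (n = 6) in cerebellum. Other tRNAs whose first anticodon base is converted to inosine were taken as a list of the anticodons Arg-ACG, Ile-AAT, Leu-AAG, Pro-AGG, Ser-AGA, Thr-AGT and Val-AAC, which had 24 isodecoders tested. Gly-ACC-1-1, whose written anticodon starts with A too, was not in that list. Of the list, 6 of 24 fell (11.5% of all rows) and 0 rose (8.17%) in cerebrum. In cerebellum 1 fell (1.98% of all rows) and 0 rose (0.495%). Between wildtype tissues 10 were higher in cerebellum (33.3% of all rows) and 9 lower (37.7%). Their medians were -0.22, -0.03 and -0.13. Names with and without a gene number did not split the family: 1 of 6 with a number (Ala-AGC-1-1) and 1 of 3 without (Ala-AGC-5) fell in cerebrum.

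The authors' deposited tables give their own log2 changes for the family. In the authors' deposited table of cerebrum isodecoders the values are positive: 2.02 for Ala-AGC-1-1 (adjusted p = 1.66e-39), 1.51 for Ala-AGC-5 and 0.35 for Ala-AGC-4. Their direction is not stated. The sign is opposite to that of the counts for Ala-AGC-1-1 and Ala-AGC-5, where mutants lay lower, while Ala-AGC-4 was 0.06 in the counts with TMM and -0.33 with mitochondrial scaling. Of the 111 rows called here in cerebrum with mitochondrial scaling, 111 had the opposite sign in the authors' deposited isodecoder table, whereas 0 rows called here did in the other 3 that they deposited. The authors' deposited value for the Ala-AGC total in cerebrum is -0.46 (adjusted p = 0.000514) and in cerebellum -0.37 (adjusted p = 0.185). In cerebellum the authors' deposited table lists Ala-AGC-1-1 at -0.89 (adjusted p = 0.00573), Ala-AGC-5 at -0.57 (adjusted p = 0.0429) and Ala-AGC-3-1 at -0.50 (adjusted p = 0.0486), the 3 members that passed there. Ala-AGC-10-1 is at 0.68 in that table, the authors' one positive value for a member in cerebellum (adjusted p = 0.191).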

How the data were processed

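Values were taken from tables for 21 QuantM-tRNA-seq libraries, matched to samples by column name. The tools were cutadapt, Bowtie2, featureCounts and DESeq2 with the mm10 build, per the submitters' processing notes. Tool versions and the treatment of reads shared by near-identical isodecoders are not given in these sources. That assignment could move reads between members. The authors deposited raw counts per tRNA. The authors' own comparisons, deposited as well, hold a log2 fold change, a p-value with its adjusted form, a score (the test statistic) and a mean normalized signal, per the file headers. Library sizes and tests left out the spike-in row.

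Each tissue was fitted alone on all tRNA rows with edgeR 4.0.16 (R 4.3.3): filterByExpr with a minimum count of 10, TMM scaling, robust quasi-likelihood F tests, two-sided, and Benjamini-Hochberg adjustment over all rows at a threshold of 0.05. SE is the log2 change over the root of F. The wildtype tissue comparison and the difference between tissues used 1 fit over 21 libraries and the 204 rows in both tables. Usage was tested with diffSpliceDGE on nuclear rows. CPM values and shares were computed here from the deposited counts, and ratios and shares were compared by exact two-sided permutation. Log2 CPM for correlations used a prior count of 2. The fits were tested on simulated counts. No replicate pair agreed within sampling noise (lowest chi-square per degree of freedom 46.0 over 46 pairs). Alternatives were RLE size factors, mitochondrial and spike-in scaling, nuclear rows only, DESeq2 1.42.0, no filter, sex or depth class as a covariate, a replicate block and leaving out each library; depth class in the joint fits and the usage of the joint fit were added after seeing the data. The members and lists were chosen with earlier results of these data known. Members given in full passed in a test, had 1 of the 3 highest mean levels in wildtype cerebrum or the lowest p in a genotype comparison. Genes outside these rules were named by likeness, taken as the 3 highest correlations.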

Additional observations from a re-analysis of the deposited data

Results flagged for a closer look

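Of 40 sets of values (the 9 members and the Ala-AGC total in 4 groups), 5 held a library far from the others by Dixon's test. In independent sets chance flags about 1 in 20. These sets were not independent, since the total includes the members and the members share libraries, so the 5 cannot be set against that rate. In cerebrum, mutant 1 was low for Ala-AGC-4, at 13820 CPM with the other 3 mutants at 16825 to 17306 CPM, and for the Ala-AGC total, at 19546 CPM with the others at 25210 to 25648 CPM. Wildtype 1 was low for Ala-AGC-3-1, at 1752 CPM with the others at 2092 to 2285 CPM. In cerebellum, mutant 5 was low for Ala-AGC-2, at 2444 CPM with the others at 3878 to 4210 CPM, and for Ala-AGC-4, at 22734 CPM with the others at 32048 to 34561 CPM. Mutant 5 of cerebellum was also the library with the most counts of its tissue, 7158467, and mutant 1 of cerebrum that of its own, 7614658.

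The genotype difference itself differed between the tissues for 2 members by the joint edgeR fit: by 0.97 on the log2 scale for Ala-AGC-1-1 (adjusted p = 0.0148) and by 0.81 for Ala-AGC-5 (adjusted p = 0.0437), cerebellum minus cerebrum. With depth class as a covariate neither passed (adjusted p = 0.204 for each). Leaving out 1 library at a time, Ala-AGC-1-1 passed in all 21 fits and Ala-AGC-5 in 6 of 21 (adjusted p up to 0.107).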

How the results depend on the processing

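In cerebrum, Ala-AGC-1-1 and Ala-AGC-5 passed as lower under all alternatives run, and leaving out single libraries gave 2 to 3 members passing. Mitochondrial scaling gave 6 and spike-in scaling 4. Values that turned negative were Ala-AGC-10-1 (-0.36 and -0.35), Ala-AGC-4 (-0.33 and -0.28), Ala-AGC-6-1 (-0.35 and -0.30) and Ala-AGC-7-1 (-0.35 and -0.31), mitochondrial first. The Ala-AGC total with mitochondrial scaling was -0.44 (adjusted p = 0.00719). Without single libraries Ala-AGC-10-1 ran from -0.15 to 0.30 and Ala-AGC-8-1 from -0.26 to 0.039. The total per spike-in count ran from -0.51 to -0.23, passing only without mutant 4 (adjusted p = 0.0317).

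In cerebellum 0 members passed, against 4 with mitochondrial scaling, 6 with spike-in scaling, 2 with DESeq2 and 0 to 1 without single libraries. Ala-AGC-7-1 turned to -0.31 and -0.50 with these scalings and to -0.12 with depth class, and Ala-AGC-4 to 0.0013 with nuclear rows only. Without single libraries Ala-AGC-4 ran from -0.092 to 0.066, Ala-AGC-6-1 from -0.12 to 0.029 and Ala-AGC-7-1 from -0.036 to 0.087. The total per mitochondrial count ran from -0.57 to -0.30, passing only without wildtype 3 (adjusted p = 0.0317). In usage 1 member passed, 0 with depth class (2 unadjusted) and 1 to 2 without single libraries.

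In the joint fits, 0 members passed in the wildtype tissue comparison with spike-in scaling, where 6 rows were higher and 138 lower. For the difference between tissues, 0 passed with mitochondrial scaling (2 unadjusted), spike-in scaling (1), depth class (2) and, in usage, depth class (2). Leaving out single libraries gave 1 to 2, since Ala-AGC-5 passed in 6 of 21 fits, with adjusted p from 0.00850 to 0.107. It was lost without cerebrum mutant 1, 3 or 4, cerebrum wildtype 3, 4 or 5, cerebellum mutant 1, 2, 3 or 4, and cerebellum wildtype 1, 2, 3, 4 or 6.

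The labels do not say that same-numbered libraries share an animal, although their sexes match between tissues. Correlations of the deviations of same-numbered libraries exceeded 0.1 in some pairs but not in all. They ran from -0.29 to 0.56 for mutant and wildtype cerebrum and from 0.02 to 0.21 for cerebellum. Between tissues they ran from -0.16 to 0.25 in mutants and from 0.04 to 0.46 in wildtype. Within a tissue, a replicate block paired mutant and wildtype libraries of the same number. These differ in genotype and for some numbers in sex, so that block does not account for shared animals. With it 3 members passed in cerebrum (Ala-AGC-2 at -0.36, edgeR adjusted p = 0.0228), where Ala-AGC-10-1 was -0.012, and 0 passed in cerebellum. In the joint fit the block joined the tissues of the same genotype and number. There 9 passed between wildtype tissues and 2 in the difference between tissues.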
